A study of Homo sapiens with 6 samples.

Results

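The classical cadherins and the non-clustered protocadherins were compared between UE7T-9 cells and their SRRM4 KO derivative. Members were the protein-coding genes of the count table named CDH followed by a number, together with PCDH1, PCDH7, PCDH8, PCDH9, PCDH10, PCDH12, PCDH17, PCDH18, PCDH19 and PCDH20. They numbered 33 of 58735 genes, 23 of them CDH genes and 10 protocadherins. UE7T-9 is an established human mesenchymal stem cell (MSC) line from bone marrow. The control group was 3 libraries of UE7T-9 cells labelled wild type. The SRRM4 KO group was 3 libraries of UE7T-9 cells that had received a lentiviral CRISPR v2 vector against SRRM4, a splicing factor gene of neurons, and had been selected with puromycin and cloned by limiting dilution. The KO group is therefore 1 cloned line, its SRRM4 protein was described as reduced rather than lost, and whether the control cells had been infected with a lentivirus or cloned is not clear from the sources used here. A difference caused by the knockout and one caused by cloning or by the vector cannot be told apart. The labels do not say that the 3 libraries of a group came from separate cultures, so p-values measure only the spread between these libraries.

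Cadherins are membrane proteins that hold neighbouring cells together through repeated calcium-binding domains outside the cell. Type I and type II classical cadherins bind the same or a related cadherin on the next cell and are tied by their tails to catenins and through them to actin. MSCs and fibroblasts are known for N-cadherin (CDH2) and cadherin-11 (CDH11), whereas E-cadherin (CDH1) marks epithelia and VE-cadherin (CDH5) marks endothelium. Non-clustered protocadherins bind more weakly, do not use catenins in the same way, and act in cell sorting, cell motility and the wiring of neurons.

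The libraries held 21496117 to 23868323 counts, and a count of 0 allows up to 3 counts, or 0.123 to 0.139 CPM (counts scaled to library size), for counting error only. Among the controls, replicate 1 differed most, with counts for 22403 genes where replicates 2 and 3 had 20613 and 20674. SRRM4 had 0 counts in all 6 libraries, which gives no check of the knockout. Of the MSC markers, NT5E (CD73) had 7116 to 7934 counts in control and 10862 to 11755 in KO (log2 fold change 0.52, adjusted p = 4.23e-05), and ENG (CD105) had 4847 to 5781 and 4065 to 4858 (-0.34, adjusted p = 0.00364). THY1 (CD90) went from 144 ± 17.7 to 26.7 ± 2.62 CPM (SD, n = 3; log2 fold change -2.43, adjusted p = 3.63e-10).

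Of the 33 members, 16 had enough counts to be tested, 10 CDH genes and 6 protocadherins. A gene was called when its adjusted p was under 0.05 and its log2 fold change (KO minus control) was beyond 1 in either direction. CDH10 was called higher. CDH6, PCDH1, PCDH7 and PCDH18 were called lower. These 5 calls among 16 tested members stand beside a background of 12.6% of all 15341 tested genes, made up of 5.45% called higher and 7.14% called lower. By adjusted p alone, 2 members were higher and 7 lower, beside 20.7% and 20.9% of all tested genes, or 41.6% in either direction. All KO libraries lay above all control libraries in 1 member (background 25.9%) and below them in 7 members (background 25.9%), 8 in all beside 51.8% of tested genes. PCDH1 passed the filter on low counts through the control libraries alone.

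**Figure D1:**
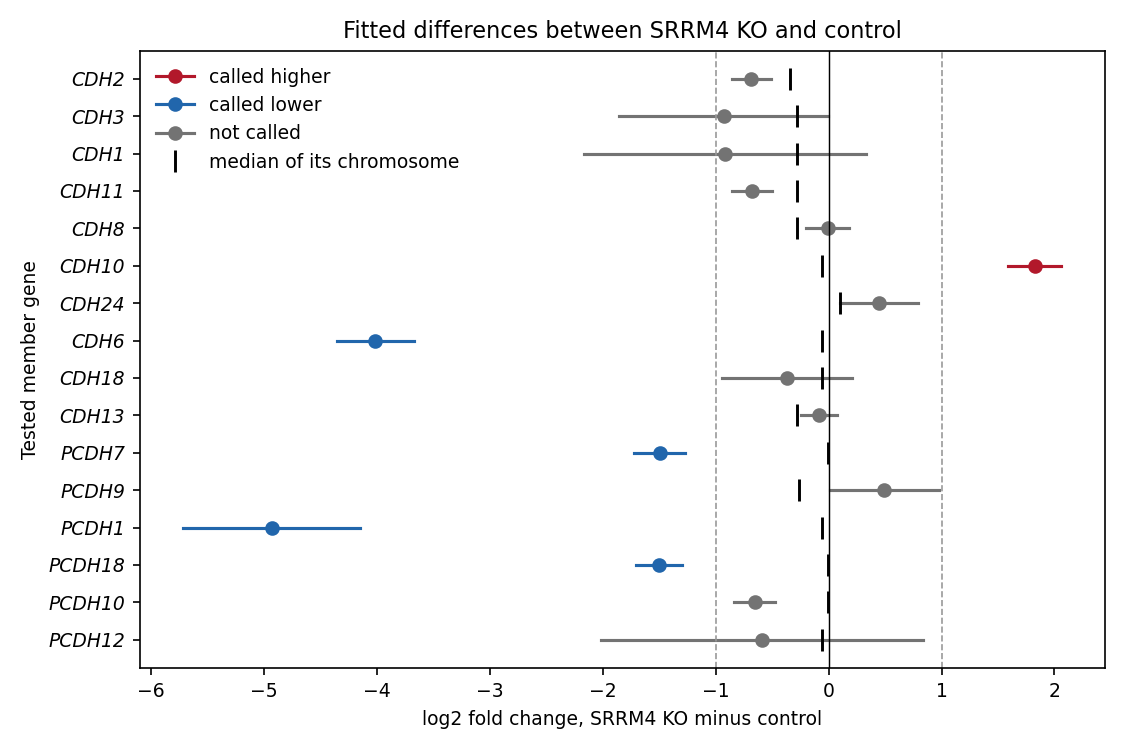
Fitted log2 fold change (KO minus control, horizontal axis) of the 16 tested members with 95% intervals, ordered by subgroup. Black ticks mark the median of all tested genes on the same chromosome, and dashed lines the threshold of 1. CDH10 lies right of the threshold at 1.82, CDH6 and PCDH1 lie far to the left at -4.01 and -4.93, and PCDH7 and PCDH18 lie together at -1.50.

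The stretch before the start of transcription was examined for the called members, since these are the genes whose RNA differed most. RefSeq windows (GRCh38.p14) were found for 20 of the 33 members and for 4 of the 5 called ones, and each is shown 5′ to 3′ in the direction of the gene, as the 250 bases before the start. Capitals mark a CCAAT box (CCAAT, seen here as ATTGG on the other strand), a GC box (GGGCGG) and the E-box that Snail and ZEB repressors bind (CACCTG, or CAGGTG on the other strand). The windows are chr5:24644979-24645228 (minus strand) for CDH10, chr4:30720119-30720368 (plus strand) for PCDH7, chr4:137532495-137532744 (minus strand) for PCDH18 and chr5:141869628-141869877 (minus strand) for PCDH1. None of them overlaps an exon of GENCODE release 29, and that of PCDH1 lies within an intron of its longer transcripts.
CDH10: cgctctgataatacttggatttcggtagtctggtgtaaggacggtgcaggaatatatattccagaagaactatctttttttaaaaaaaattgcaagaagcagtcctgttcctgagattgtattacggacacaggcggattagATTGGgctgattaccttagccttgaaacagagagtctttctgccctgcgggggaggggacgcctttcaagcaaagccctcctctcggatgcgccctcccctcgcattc
PCDH7: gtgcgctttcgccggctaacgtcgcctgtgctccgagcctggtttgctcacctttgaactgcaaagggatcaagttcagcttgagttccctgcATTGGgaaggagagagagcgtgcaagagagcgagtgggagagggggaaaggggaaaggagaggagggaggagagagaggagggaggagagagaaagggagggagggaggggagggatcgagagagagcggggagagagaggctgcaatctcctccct
PCDH18: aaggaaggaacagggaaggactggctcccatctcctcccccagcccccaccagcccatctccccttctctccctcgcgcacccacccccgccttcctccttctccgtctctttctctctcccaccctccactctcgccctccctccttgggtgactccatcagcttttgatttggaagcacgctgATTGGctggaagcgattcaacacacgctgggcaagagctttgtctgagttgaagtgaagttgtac
PCDH1: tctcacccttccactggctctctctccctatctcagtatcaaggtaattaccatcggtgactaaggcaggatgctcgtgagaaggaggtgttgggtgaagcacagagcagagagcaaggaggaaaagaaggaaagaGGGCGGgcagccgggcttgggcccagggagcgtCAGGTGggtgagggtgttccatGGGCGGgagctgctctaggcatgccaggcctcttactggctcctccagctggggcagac
CDH10, which was higher, and PCDH7 and PCDH18, which were lower, each held 1 CCAAT box and no match to the other motifs. PCDH1 held 2 GC boxes and 1 E-box and no CCAAT box. Among 35116 RefSeq windows of this length, 32.0% held a CCAAT box, 42.6% a GC box, 17.5% the E-box and 10.7% a TATA box (TATAAA), which none of these 4 windows held. CpG pairs numbered 10 in CDH10, 10 in PCDH7, 8 in PCDH18 and 6 in PCDH1, against a median of 11 over all windows. Motif matches were searched on both strands and are a description of these letters only.

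Type I classical cadherins were led by CDH2 (N-cadherin, ENSG00000170558; chromosome 18, 27950966 to 28177446, GRCh38). CDH2 had 7160, 6251 and 6493 counts in the control libraries and 4175, 4438 and 4339 in the KO libraries. Every KO library lay below every control library. As CPM it went from 304 ± 23.0 to 189 ± 7.59 (SD, n = 3), a fall of 1.61-fold (log2 fold change -0.69, SE 0.081, adjusted p = 7.32e-06). This passed the test but not the threshold of 1, and fits on 5 of the 6 libraries gave -0.72 to -0.62. Genes of chromosome 18 had a median of -0.34, and the 31 tested genes within 5 Mb of CDH2 had a median of -0.42. The part of that shift in the value of CDH2 was not tested. In bulk RNA, fewer cells with a transcript and less transcript per cell cannot be told apart.

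The other type I genes were rare, with at most 56 counts in a library. CDH3 (P-cadherin, of basal epithelium) had 54, 25 and 56 counts in control and 14, 30 and 30 in KO. The groups overlapped, and the log2 fold change of -0.93 (95% interval -1.86 to -0.0036) did not pass the adjusted test (adjusted p = 0.101). Without control replicate 2 it was called lower, at -1.21 (adjusted p = 0.0403). CDH1 (E-cadherin), whose gene lies 14.6 kb beyond CDH3 on chromosome 16, had 12, 11 and 39 counts in control and 9, 13 and 12 in KO. Its groups overlapped and its interval of -2.16 to 0.33 reached both sides of 0 (adjusted p = 0.230). Most of that difference came from control replicate 3, without which the value was -0.11. CDH4 (R-cadherin) and CDH15 (M-cadherin, of muscle) had at most 8 and 11 counts and were not tested. The 8 listed epithelial markers summed to 1.90 to 2.87 CPM in control and 1.82 to 3.01 in KO. EPCAM had at most 2 counts in a library and GRHL2 none. None of the 8 was called. CLDN4, the only one tested, had 31, 16 and 20 counts in control and 64, 60 and 26 in KO (log2 fold change 1.08, adjusted p = 0.0560), with overlapping groups. KRT19, too rare for the test, had 10, 9 and 19 counts in control and 0 in each KO library. Their part in the values of CDH1 and CDH3 was not tested.

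Type II classical cadherins held the largest differences among the CDH genes, in opposite directions. CDH10 (ENSG00000040731; chromosome 5, 24487100 to 24644978), a cadherin best known from brain, had 610, 590 and 490 counts in control and 1928, 2242 and 2105 in KO. The lowest KO library was above the highest control library. CDH10 rose 3.54-fold, from 25.8 ± 3.37 to 91.4 ± 4.59 CPM (SD, n = 3; log2 fold change 1.82, SE 0.11, adjusted p = 5.10e-09). CDH6 (K-cadherin, of kidney and some mesenchyme; ENSG00000113361) lies 6.55 Mb away on the same chromosome arm, at 31193750 to 31329146. It had 744, 652 and 830 counts in control and 45, 56 and 43 in KO. CDH6 fell 16.2-fold, from 33.9 ± 3.49 to 2.09 ± 0.183 CPM (SD, n = 3; log2 fold change -4.01, SE 0.16, adjusted p = 6.57e-11). Each library left out in turn kept both calls, with CDH10 between 1.72 and 1.89 and CDH6 between -4.10 and -3.94. Per gene length, CDH10 stood at 2.00 to 3.06 times CDH6 in the control libraries and at 135 to 166 times CDH6 in the KO libraries. The tested genes of chromosome 5 had a median log2 fold change of -0.06. Within 5 Mb, the 5 tested neighbours of CDH10 had a median of 0.43 and the 29 of CDH6 a median of -0.08.

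CDH11 (cadherin-11 or OB-cadherin, of osteoblasts and mesenchyme; ENSG00000140937, chromosome 16, 64943753 to 65126112) had 5019, 4483 and 4790 counts in control and 2954, 3207 and 3185 in KO. The groups did not overlap. CDH11 fell 1.60-fold, from 218 ± 12.1 to 136 ± 7.29 CPM (SD, n = 3; log2 fold change -0.68, SE 0.082, adjusted p = 8.97e-06), short of the threshold of 1. The ratio of CDH2 to CDH11 per gene length was 3.66 to 3.86 in the control libraries and 3.68 to 3.82 in the KO libraries. The ranges of the ratio overlapped, and both genes fell. CDH8, a type II cadherin of the nervous system that lies 2.91 Mb from CDH11, had 2130, 1975 and 1896 counts in control and 1942, 2181 and 2118 in KO. Its groups overlapped, and its log2 fold change of -0.01 had an interval of -0.20 to 0.18 (adjusted p = 0.942). Chromosome 16, which holds 8 of the members, had a median of -0.28. Within 5 Mb, the 82 tested neighbours of CDH11 had a median of -0.33 and the 39 of CDH8 a median of -0.21. The part of that shift in the value of CDH11 was not tested. CDH24 had 371, 467 and 461 counts in control and 740, 663 and 450 in KO, and its groups overlapped. CDH24 rose by 0.44 on the log2 scale (SE 0.16, adjusted p = 0.0382). That result depended on single libraries: it did not pass without control replicate 1 (adjusted p = 0.0638), control replicate 3 (0.0688), KO replicate 1 (0.254) or KO replicate 2 (0.101). CDH18 had 114, 73 and 73 counts in control and 68, 89 and 55 in KO, with no detectable difference (interval -0.94 to 0.21, adjusted p = 0.298).

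The remaining type II genes were at or near 0. CDH9, CDH19 and CDH22 had 0 counts in all 6 libraries. CDH12, which lies in the same region of chromosome 5 as CDH10 and CDH18, was at 0 in the control libraries and had 6, 5 and 12 counts in KO. Its mean KO level was 2.48 times that of 3 counts in a control library, with no allowance for counting error in KO. CDH12 was too rare for the main test, and with no filter on low counts it was called higher (adjusted p = 0.0125). CDH5 (VE-cadherin) had 1, 0 and 0 counts in control and 1, 0 and 0 in KO. The endothelial marker PECAM1 had at most 3 in a library. The 8 listed endothelial markers together summed to 22.8 to 26.3 CPM in control and 4.80 to 6.68 in KO. CDH7 and CDH20 had at most 1 and 6 counts.

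Of the CDH genes outside the classical types, CDH13 alone was abundant. CDH13 (T-cadherin, which lacks a cytoplasmic tail and is held in the membrane by a lipid anchor; chromosome 16, 82626803 to 83800640) had 6640, 5927 and 6346 counts in control and 5979, 6579 and 6080 in KO. The groups overlapped, at 289 ± 16.1 and 272 ± 4.16 CPM (SD, n = 3). Its log2 fold change of -0.09 had an interval of -0.25 to 0.07 (adjusted p = 0.385). CDH16, CDH17, CDH23 and CDH26, of kidney, intestine, inner ear and some epithelia, had at most 10 counts in any library.

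**Figure D2:**
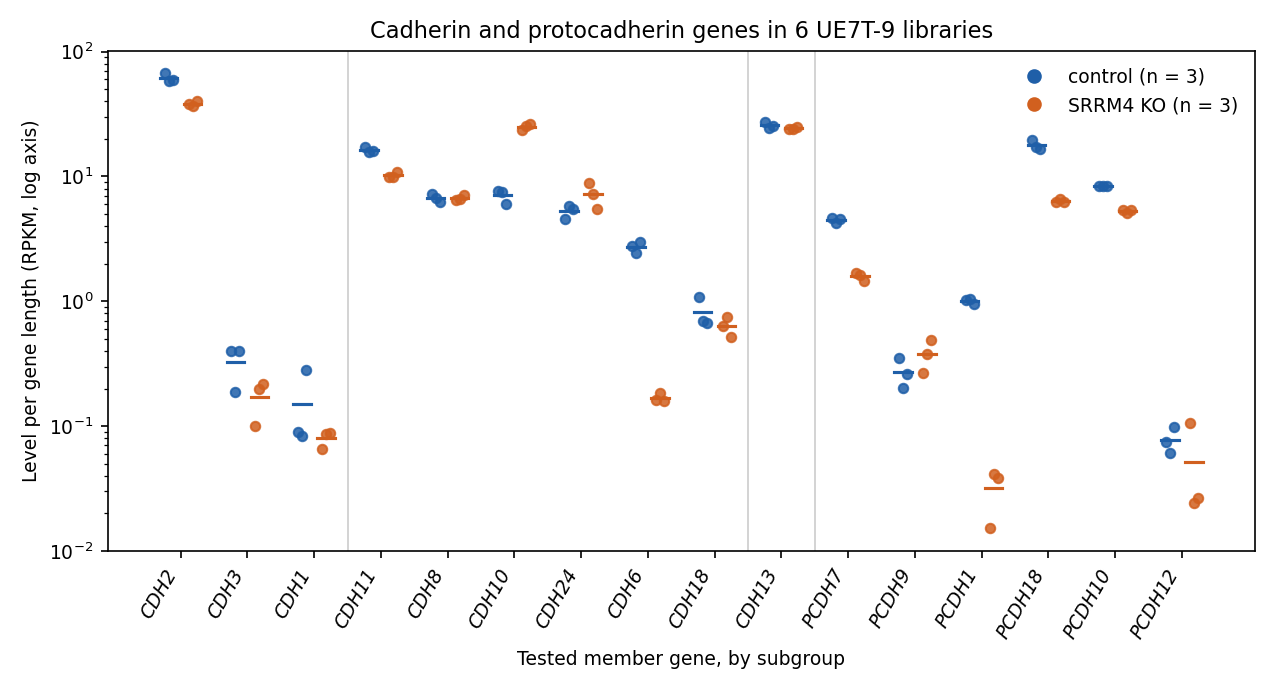
Level per gene length (RPKM, log axis) of the 16 tested members in each library, as points with a bar at the group mean (n = 3 each). Vertical lines separate type I, type II, CDH13 and the protocadherins. CDH2 is highest in every library, CDH10 is raised in all 3 KO libraries, and CDH6, PCDH1, PCDH7, PCDH18 and PCDH10 are lower in all 3 KO libraries than in any control library.

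Among the protocadherins, 3 of 6 tested members were called, all of them lower, beside 7.14% of all tested genes called lower. PCDH1 among them is the gene that passed the filter through the control libraries alone. Of the delta-1 group, PCDH1 (ENSG00000156453; chromosome 5, 141853111 to 141879246), a protocadherin of airway epithelium and other barriers, had 131, 133 and 125 counts in control and 2, 6 and 5 in KO. PCDH1 fell 30.5-fold, from 5.94 ± 0.298 to 0.188 ± 0.0854 CPM (SD, n = 3; log2 fold change -4.93, SE 0.37, adjusted p = 5.28e-08). The KO level is near the floor of 3 counts in 1 library, so the size is less certain than that of CDH6, with an interval of -5.71 to -4.15. PCDH7 (ENSG00000169851; chromosome 4, 30720415 to 31146805), also of the delta-1 group, had 1235, 1110 and 1252 counts in control and 457, 487 and 391 in KO. It fell 2.82-fold, from 54.9 ± 2.94 to 19.4 ± 1.46 CPM (SD, n = 3; log2 fold change -1.50, SE 0.11, adjusted p = 3.37e-08). PCDH9, the third of this group in the table, had 234, 134 and 180 counts in control and 185, 287 and 334 in KO. Its groups overlapped, and its value of 0.49 (interval 0.0081 to 0.97) did not pass the adjusted test (adjusted p = 0.0964). It passed without control replicate 1 (0.72, adjusted p = 0.00871) and without KO replicate 1 (0.68, adjusted p = 0.0275).

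Of the delta-2 group, PCDH18 (ENSG00000189184; chromosome 4, 137518918 to 137532494) had 2853, 2488 and 2488 counts in control and 923, 1064 and 910 in KO. PCDH18 fell 2.83-fold, from 120 ± 10.7 to 42.2 ± 1.33 CPM (SD, n = 3; log2 fold change -1.50, SE 0.094, adjusted p = 7.81e-09). PCDH10 (OL-protocadherin, ENSG00000138650; chromosome 4, 133149315 to 133208606), 4.31 Mb from PCDH18, had 1835, 1821 and 1895 counts in control and 1222, 1261 and 1202 in KO. It fell 1.58-fold (log2 fold change -0.66, SE 0.086, adjusted p = 1.87e-05), short of the threshold of 1. The groups of both genes were apart, and the median of chromosome 4 was -0.0048. The fits without 1 library ranged from -1.55 to -1.43 for PCDH18, -1.54 to -1.45 for PCDH7, -0.68 to -0.64 for PCDH10 and -5.19 to -4.62 for PCDH1. PCDH8 and PCDH20 had 0 counts in all 6 libraries, and PCDH17 and PCDH19 had at most 3 and 1. The 0 of PCDH20 is uncertain, since 95.8% of its exon bases are shared on the same strand with another annotated gene (AL592490.1, also at 0 counts), and how shared reads were counted is not known. PCDH12, a protocadherin of endothelium that lies 64.3 kb from PCDH1, had 11, 9 and 15 counts in control and 16, 4 and 4 in KO, with an interval of -2.01 to 0.84 (adjusted p = 0.518). Its exons share 108 bases with RNF14 on the other strand, and the libraries were not stranded.

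The summed level of the endothelial marker list moved with the groups, mainly through TEK and KDR, and its part in the results above was not tested. The 8 genes summed to 22.8 to 26.3 CPM in control and 4.80 to 6.68 in KO. Of the 3 tested, TEK (log2 fold change -3.80) and KDR (-1.60) were called lower and VWF was not, beside 7.14% of all tested genes called lower. The other 5 genes of the list were too rare for the test: PECAM1, CLDN5 and EMCN had at most 5 counts in a library, TIE1 had 0, 0 and 4 in control and 0, 6 and 3 in KO, and ESAM had 1, 9 and 0 in control and 12, 1 and 13 in KO. CDH5, a member outside that list, had at most 1.

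Levels of different members can be set side by side only per gene length, as RPKM (CPM divided by the annotated exon length in kilobases). In control, CDH2 came first at 61.4 ± 4.64 RPKM (SD, n = 3), followed by CDH13 (25.8 ± 1.44), PCDH18 (17.9 ± 1.59), CDH11 (16.3 ± 0.906), PCDH10 (8.33 ± 0.0218), CDH10 (7.06 ± 0.920) and CDH8 (6.77 ± 0.491). PCDH18 and CDH11 differed by no more than the larger SD, and so did CDH10 and CDH8. In SRRM4 KO cells CDH2 was still first at 38.2 ± 1.53 RPKM (SD, n = 3), and CDH10 had moved from place 6 to place 2 at 25.0 ± 1.25. CDH10 and CDH13 (24.3 ± 0.372) differed there by less than their spread. PCDH18 had moved from place 3 to place 7, at 6.31 ± 0.198 RPKM.

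Summed over all 33 members, the level was 153 to 170 RPKM in the control libraries and 125 to 129 in the KO libraries. Type I cadherins went from 61.9 ± 4.64 to 38.5 ± 1.60 RPKM (SD, n = 3), almost all of it CDH2. The protocadherins went from 32.0 ± 1.79 to 13.7 ± 0.0610 RPKM (SD, n = 3), 2.35-fold lower. Type II cadherins went the other way, from 39.0 ± 1.59 to 50.0 ± 0.343 RPKM (SD, n = 3), through CDH10. This last direction depends on the unit: by CPM, where the short annotated length of CDH10 (3660 bases, against 13381 for CDH11) does not enter, the type II sum in KO was 0.893 of control. For these sums the 2 groups were apart in all but the other CDH genes, where CDH13 dominates. No p is given for sums over chosen members.

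As shares of the summed RPKM within a library, CDH2 took 38.2% to 39.4% in control and 29.5% to 30.9% in KO. CDH10 took 3.91% to 4.88% in control and 18.8% to 20.3% in KO. PCDH18 took 10.9% to 11.6% in control and 4.80% to 5.23% in KO, and CDH13 took 16.0% to 16.6% in control and 19.1% to 19.3% in KO. The gain of CDH10, 15.3 percentage points, was the largest of these 4 differences. It depends on the unit: by CPM it was 7.66 points, and the difference of CDH2 was -3.98 points in place of -8.44.

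**Figure D3:**
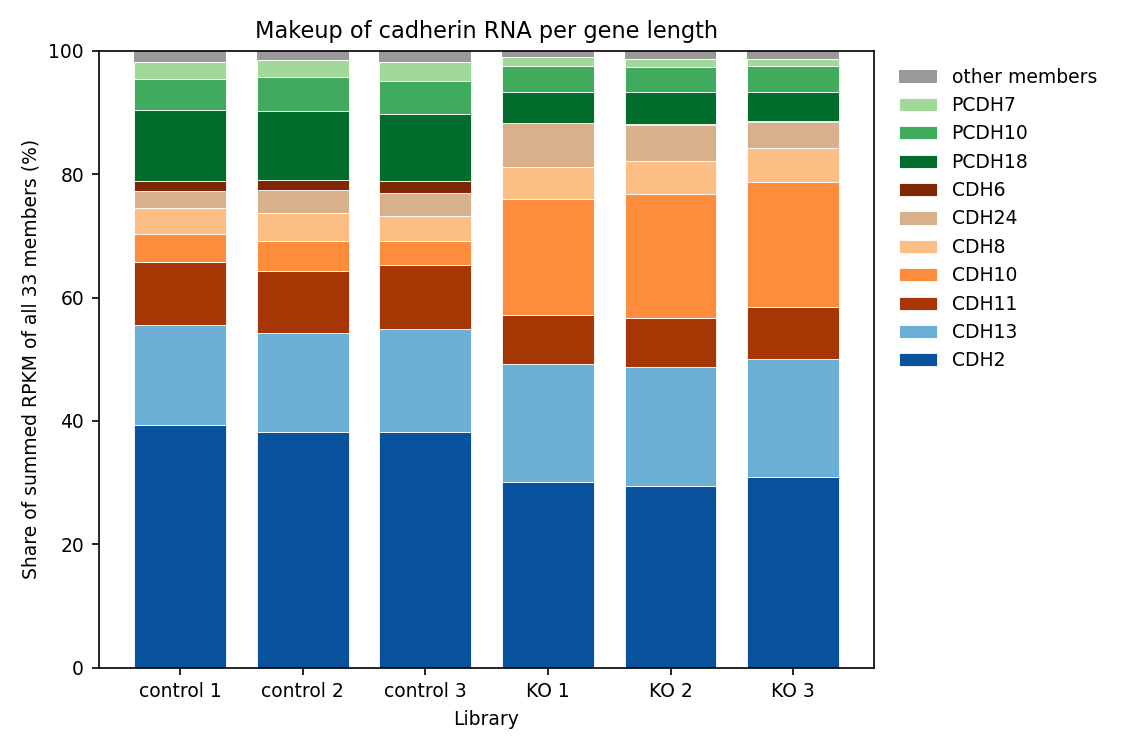
Share of each member in the summed RPKM of all 33 members (vertical axis, percent) for each of the 6 libraries. The share of CDH10 is at most 4.88% in a control library and at least 18.8% in a KO library, while those of CDH2, PCDH18, PCDH10 and PCDH7 are smaller in KO and that of CDH6 is a thin line.

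Partners, regulators and relatives of the cadherins were described with 7 gene lists of 73 genes, of which 60 were tested. Of these, 1 was called higher and 6 lower, 11.7% in all beside 12.6% of all tested genes, with a median log2 fold change of -0.07 beside -0.0052 for all tested genes. By calls in either direction the lists as a whole were thus near the background, which was made up of 5.45% higher and 7.14% lower. By adjusted p alone, 12 of the 60 were higher and 22 lower, beside 20.7% and 20.9% of all tested genes. The lower genes were above that share. None of the 8 tested catenins and linkers was called (median -0.04), and by adjusted p alone 1 was higher and 3 lower, beside 20.7% and 20.9% of all tested genes. CTNNB1 (beta-catenin, which binds the tails of classical cadherins) had 384 ± 14.6 CPM in control and 429 ± 10.8 in KO (SD, n = 3; log2 fold change 0.16, adjusted p = 0.0834). CTNNA1 (alpha-catenin, the link to actin) was at -0.08 (adjusted p = 0.385) and JUP (plakoglobin) at 0.42 (adjusted p = 0.281). CTNND1 (p120-catenin, which keeps cadherins at the surface) fell, with a log2 fold change of -0.38 (adjusted p = 0.000818). AFDN (afadin, which links nectins to actin) rose, at 0.57 (adjusted p = 0.000101), and is named after its value was seen. None of the 4 nectins was called. By adjusted p alone 1 was higher and 0 lower, beside 20.7% and 20.9% of all tested genes. It was NECTIN4 (0.64, adjusted p = 0.0226), named after its value was seen.

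In the list of proteases that cut cadherins, 2 of 11 were called lower, beside 7.14% of all tested genes. They were the proprotein convertases PCSK5 (log2 fold change -1.25, adjusted p = 2.26e-05) and PCSK6 (-2.67, adjusted p = 0.000227), which had 6 to 13 counts in the KO libraries and passed the filter through the control libraries. By adjusted p alone 2 others of the list were higher, beside 20.7% of all tested genes: FURIN (0.60) and ADAM15 (0.25), named after their values were seen. None of the 10 protocadherin tail partners, which are the WAVE actin complex and a phosphatase subunit, was called, and by adjusted p alone 2 were higher and 3 lower, beside 20.7% and 20.9% of all tested genes. WASF3, at -0.95 and named after its value was seen, was called lower without control replicate 3 (-1.04) or KO replicate 3 (-1.02). Of the 7 repressors of cadherin genes none was called either (median -0.66), but 4 of them fell by adjusted p alone, beside 20.9% of all tested genes. These were ZEB2 (-0.83), TWIST1 (-0.98), TWIST2 (-0.66) and SNAI2 (-0.31), named after their values were seen. TWIST1 was called lower without control replicate 1 (-1.12) and without KO replicate 2 (-1.08), and also under the stricter count minimum of 10.

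Desmosomal genes, which include the desmosomal cadherins, had 2 of 7 called lower, beside 7.14% of all tested genes. DSC2 (desmocollin 2) had 559, 549 and 490 counts in control and 148, 199 and 174 in KO (log2 fold change -1.69, adjusted p = 1.95e-07). DSG3 (desmoglein 3) had 30, 38 and 48 counts in control and 14, 1 and 18 in KO (-1.84, adjusted p = 0.0258). The call of DSG3 was lost without control replicate 2 (adjusted p = 0.0599), control replicate 3 (0.0942) or KO replicate 2 (0.0537), where the value was -1.29. DSG3 passed the filter through the control libraries. By adjusted p alone 3 of the 7 desmosomal genes were higher and 4 lower, beside 20.7% and 20.9% of all tested genes. The higher ones were DSP (desmoplakin, 0.49), PKP2 (0.71) and PKP3 (0.90), and the lower ones included the abundant desmosomal cadherins DSG2 (-0.42, adjusted p = 0.00117) and DSC3 (-0.38, adjusted p = 0.00189), all 5 named after their values were seen. DSC2, DSC3, DSG2 and DSG3 lie on chromosome 18 within 5 Mb of CDH2. They are among the 31 tested genes there whose median was -0.42. That median is the value of DSG2 itself, so it is no separate reference for them. The median of chromosome 18 was -0.34. The part of that shift in their values was not tested. PKP3 was called higher without control replicate 2 (1.20). Of 13 tested genes of the wider cadherin superfamily, 1 was called higher and 2 lower, beside 5.45% and 7.14% of all tested genes, and by adjusted p alone 3 were higher and 6 lower, beside 20.7% and 20.9%. CDHR1 was called higher (1.86, adjusted p = 0.000488), and DCHS1 (-1.25, adjusted p = 0.000676) and CDHR3 (-2.22, adjusted p = 0.00184) were called lower. CDHR3 had 5, 10 and 15 counts in KO and passed the filter through the control libraries, and it was not tested under the stricter count minimum of 10. DCHS1 is known as the ligand of the giant cadherin FAT4.

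**Figure D4:**
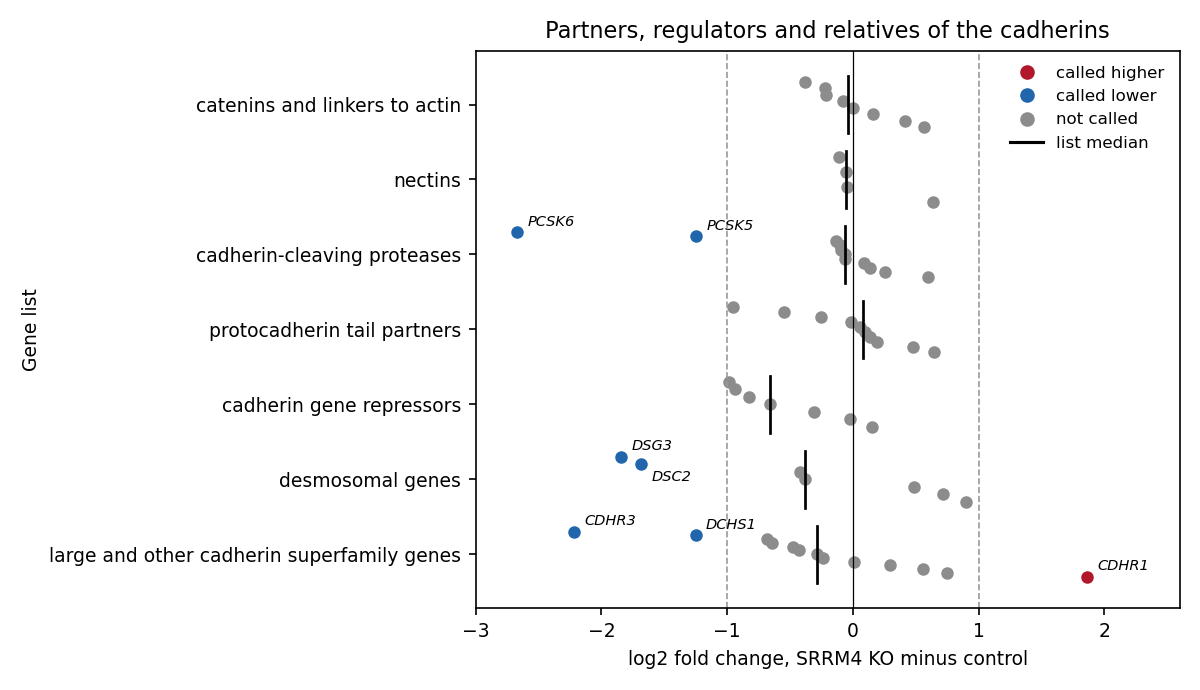
Fitted log2 fold change (KO minus control, horizontal axis) of the tested genes of 7 pathway lists, 1 point per gene, with called genes named and a line at each list median. The catenins and the nectins lie within the dashed threshold of 1, and the called genes belong to the proteases, the desmosomal genes and the wider superfamily.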

How the data were processed

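Total RNA of 3 control and 3 SRRM4 KO libraries of UE7T-9 cells was sequenced by the authors as non-stranded mRNA-seq on a NovaSeq system. The authors deposited raw read counts per gene for 58735 genes. The submitters' processing notes name HISAT2 2.0.5, featureCounts 1.5.0-p3 and DESeq2, without their settings, so the handling of reads shared by overlapping genes is not known. The genome build is not given in the sources used here, and all 58735 genes had the start and end of GENCODE release 29 (GRCh38). The gene length in the file equalled the union of annotated exons for all 33 members, which lowers the RPKM of genes with long alternative exons.

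Counts were tested with edgeR 4.0.16 in R 4.3.3 (TMM, filterByExpr, quasi-likelihood test, Benjamini-Hochberg adjustment over 15341 genes), and a call needed an adjusted p below 0.05 with a log2 fold change past 1 in size. CPM and RPKM use TMM-scaled library sizes. Standard errors come from the fold change and the F statistic. Groups and replicates come from the sample titles. An exact permutation test of 3 against 3 libraries cannot go below p = 0.10, so it is not quoted. No replicate pair agreed within sampling noise (chi-square per degree of freedom of at least 5.06). The self-test on simulated counts recovered most of 200 planted changes with edgeR and DESeq2. All of these were past the threshold of 1, so smaller changes such as that of CDH2 were not examined by it.

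Every member is accounted for. Values per library are given for called members, tested members averaging 100 counts or more, and CDH1, CDH2, CDH3, CDH5, CDH11 and CDH13; of the pathway lists, called genes (at most 4 per list by mean CPM) and CTNNB1, CTNND1, CTNNA1 and JUP are named. Other genes with values were chosen after these were seen. Members and lists were chosen with earlier results of these data known. Neural and Schwann markers summed to 1.52 to 3.48 CPM in a library, with none called. A further marker list is not reported here. Alternatives were DESeq2 size factors, no low-count filter, a minimum of 10 counts in every library, DESeq2 1.42.0, a replicate block, no fold change threshold, each library left out and, for sums and shares, CPM.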

Additional observations from a re-analysis of the deposited data

How the results depend on the processing

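Under DESeq2 size factors, the DESeq2 Wald test and the replicate block, the same 5 members were called. Whether the replicate numbers pair the samples is not known from the titles. Same-numbered deviations from the group means correlated at -0.055, 0.083 and -0.053, and different-numbered ones at -0.114 to 0.158. Such deviations offset each other within 3 libraries, so these values cannot decide it. The block changed no member's call: it gave 1 higher and 4 lower, and 1 higher and 6 lower over the pathway lists. With no filter, 2 of 28 fitted members were called higher, since CDH12 was added, and PCDH9 passed the adjusted test at 0.49 (adjusted p = 0.0249). Of all 27405 genes fitted there, 916 were called higher and 1243 lower. With at least 10 counts in every library, PCDH1 was not tested and 4 of 13 members were called. Of all 13520 genes tested there, 624 were called higher and 765 lower. Over the pathway lists 4 genes were lower in place of 6, since PCSK6, CDHR3 and DSG3 were not tested and TWIST1 was added. With no fold change threshold, 2 members were higher and 7 lower, 9 in all, beside 20.7% and 20.9% of all tested genes. Over the pathway lists 12 of 60 tested genes were higher and 22 lower, beside the same shares. Leaving out each library gave 5 to 6 called members, 1 higher and 4 to 5 lower, and over the lists 1 to 2 higher and 5 to 7 lower. Over all genes these fits called 791 to 875 higher and 1029 to 1162 lower, of 15757 to 15873 tested. All 5 called members kept their calls in each of these 6 fits. By CPM in place of RPKM, the ratio of KO to control was 0.893 for the type II sum, which reverses its direction, 0.466 for the protocadherins and 0.746 for all members. The share then changed by -3.98 percentage points for CDH2, 7.66 for CDH10, 5.99 for CDH13 and -4.97 for PCDH18. Depth limits CDH1, CDH3 and PCDH12, whose intervals are wide, and the 17 members left out by the filter, of which 12 could be fitted without it and CDH12 alone was then called.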
